A study of Rattus norvegicus with 4 samples.

Results

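Fasn, Scd, Fads2 and Acsl1 encode enzymes that build, desaturate and activate long-chain fatty acids in the liver. They were followed in male Sprague-Dawley rats 24 h after 1 intraperitoneal injection of α-naphthylisothiocyanate (ANIT) at 75 mg/kg in olive oil, against rats injected with the olive oil vehicle alone. ANIT damages the epithelium of the bile ducts, and dosed rodents serve to study cholestasis within the liver. Every spotted cDNA feature annotated with exactly 1 of these 4 symbols was taken, which gave 6 features (2 each for Acsl1 and Fads2, 1 each for Fasn and Scd) among 1936 features in all. Of the 1936 features, 1432 carried a single symbol and stood for 958 genes.

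Per the labels, liver RNA of the 3 rats of a condition was mixed, so there was 1 RNA pool for ANIT and 1 for olive oil, and the spread between animals is unknown. Each of 4 arrays carried both pools. Arrays 1 and 3 had the ANIT pool labelled with Cy5, arrays 2 and 4 had it labelled with Cy3. The arrays are read as repeats of the same 2 pools, every SD is over these 4 hybridisations, and no p-value is given. Values are log ratios of ANIT over olive oil, read as log2. This direction is likely, not stated: it follows the channel order of the labels, and if the ratios ran the other way every "lower" would read "higher". The base of the logarithm is also not stated, and fold differences would grow if it were e. The labels call the tissue liver, and since ratios hold no levels, the tissue could not be checked against its markers. In RNA from whole tissue, fewer cells of a type and less RNA per cell cannot be told apart.

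As background, the fatty acid synthase Fasn joins malonyl-CoA units into palmitate in the cytosol. The stearoyl-CoA desaturase Scd puts a double bond into saturated chains to make monounsaturated fatty acids, while the delta-6 desaturase Fads2 works on the essential polyunsaturated fatty acids. The long-chain acyl-CoA synthetase Acsl1 couples fatty acids to coenzyme A, the step that opens the way to both glycerolipid synthesis and oxidation. In the liver, insulin and feeding raise transcription of the synthetic enzymes through SREBP-1c, LXR and ChREBP, and PPARα controls Acsl1 and the desaturases in rodents.

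All 6 features were lower in the ANIT pool, on each of the 4 arrays. Their mean log2 ratios ran from -3.26 for Scd to -1.54 for the weaker Fads2 feature, which corresponds to 9.60-fold to 2.90-fold lower. A feature was called lower or higher when its mean log2 ratio was at least 1 in size (2-fold) with 1 sign on all arrays. By this rule 6 of 6 features were lower, against 3.05% of all features (59 of 1936), and 0.775% of all features were higher. With ANIT in Cy3 alone 6 of 6 were likewise lower, against 2.84% of all features, though Fads2 feature 288 only just met the limit there (-1.004). With ANIT in Cy5 alone 6 of 6 were lower as well, but so were 34.5% of all features. Ranked from the lowest mean ratio among the 1936 features, they held places 4, 5, 8, 9, 11 and 24. The 4 genes were chosen with earlier results of these data known, so these counts and places describe them and are no test.

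The deposited ratios carried a dye effect, which bears on each value below. The median ratio was -0.68 on array 1 and -0.64 on array 3 (ANIT in Cy5). It was 0.31 on array 2 and 0.35 on array 4 (ANIT in Cy3). Of all features, 63.2% had opposite signs in the dye orientations, and 17.6% were negative on all 4 arrays. The mean with ANIT in Cy5 minus the mean with ANIT in Cy3, divided by 2 and here called the dye contrast, had a median of -0.40 over all features and quartiles of -0.78 and -0.02. Centring each array on its median raised the overall median by 0.17, and the 6 features then had means between -3.10 and -1.37.

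**Figure D1:**
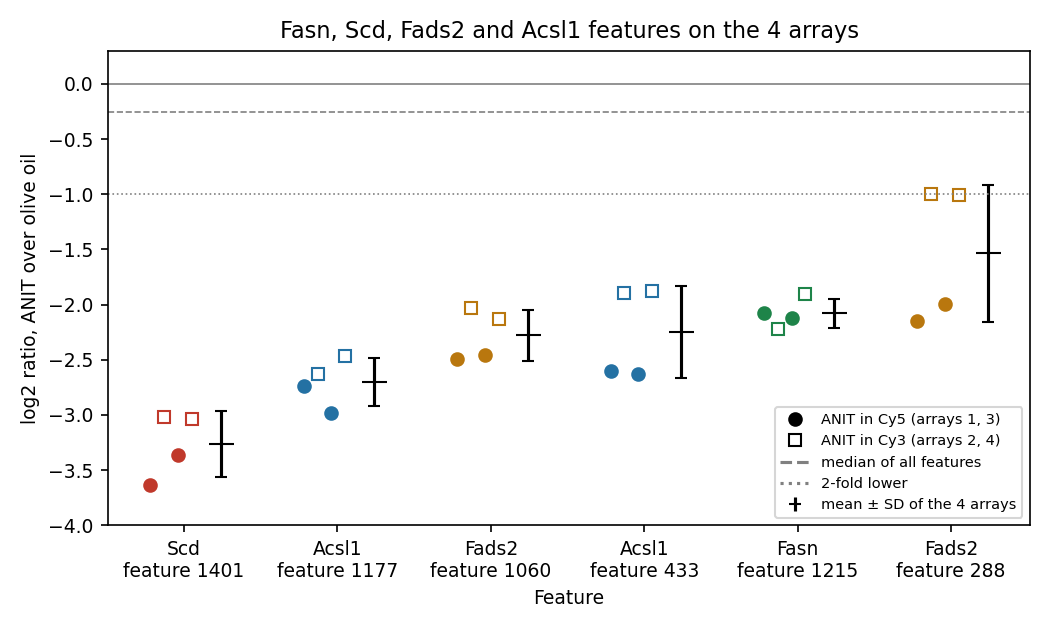
Log2 ratio of the ANIT pool over the olive oil pool (vertical axis) for each feature of Scd, Acsl1, Fads2 and Fasn, with 1 point per array (filled circles, ANIT in Cy5; open squares, ANIT in Cy3) and the mean ± SD over the 4 arrays in black. All points lie below the dashed median of all features at -0.25, and the open squares of Fads2 feature 288 alone reach the dotted line of a 2-fold difference.

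Scd had the lowest ratio of the 4 genes. Its feature 1401 read -3.64, -3.02, -3.37 and -3.04 on arrays 1 to 4, a mean of -3.26 ± 0.30 (SD, n = 4 hybridisations), or between 8.09-fold and 12.4-fold lower on single arrays. Both arrays with ANIT in Cy5 were lower than both with ANIT in Cy3. The ratio stood at place 3 or 4 from the lowest on each array, and its dye contrast was -0.24. Rat Scd has a close paralog, Scd2, that lies near it on the same chromosome with Scd4 as the only protein-coding gene between them in the RefSeq table. Scd2 feature 1833 read -0.22, -0.19, -0.41 and -0.04, a mean of -0.21 ± 0.15, which is close to the median of all features (-0.25). The Scd feature was lower than the Scd2 feature on 4 of 4 arrays, by -3.05 ± 0.26 on the log2 scale. This pair was chosen after the values were seen. Which share of each signal came from the paralog was not tested, since a spotted cDNA can bind near-identical transcripts.

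Acsl1 was lower on both of its features. Feature 1177 read -2.74, -2.63, -2.98 and -2.47 (mean -2.70 ± 0.22, 6.51-fold lower). Feature 433 read -2.60, -1.89, -2.63 and -1.88 (mean -2.25 ± 0.42, 4.75-fold lower). The orientations did not overlap on either feature. On feature 433, repeats of 1 orientation lay within 0.024 of each other, while the mean with ANIT in Cy5 minus that with ANIT in Cy3 was -0.73. The features differed (1177 minus 433) by -0.25 with ANIT in Cy5 but by -0.66 with ANIT in Cy3, and by -0.45 ± 0.26 over all arrays, feature 1177 being lower on 4 of 4.

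Fads2 also had 2 features, and these stood further apart. Feature 1060 read -2.49, -2.03, -2.46 and -2.13 (mean -2.28 ± 0.23, 4.85-fold lower). Feature 288 read -2.15, -1.0, -1.99 and -1.01 (mean -1.54 ± 0.62, 2.90-fold lower). The mean of feature 288 was -2.07 with ANIT in Cy5 against -1.0 with ANIT in Cy3. Its dye contrast of -0.53 was the largest in size of the 6 and lay below the median of all features, against -0.20 for feature 1060. The difference between the Fads2 features (1060 minus 288) was -0.41 with ANIT in Cy5 against -1.08 with ANIT in Cy3, and -0.74 ± 0.39 over the arrays. The stretch of transcript that each cDNA covers was not analysed here, and isoforms were not compared.

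Fasn had the smallest SD over the arrays of the 4 genes. Feature 1215 read -2.07, -2.22, -2.12 and -1.90 (mean -2.08 ± 0.13, 4.23-fold lower). The orientations overlapped, and the dye contrast was -0.02, the smallest in size of the 6. The repeats with ANIT in Cy3 (arrays 2 and 4) lay 0.32 apart, against a median gap of 0.11 over all features. On single arrays the feature stood between places 8 and 16 from the lowest.

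In order from the lowest ratio, the features were Scd 1401, Acsl1 1177, Fads2 1060, Acsl1 433, Fasn 1215 and Fads2 288. Paired within arrays, Scd was lower than Acsl1 1177 by -0.56 ± 0.24, and Acsl1 1177 was lower than Fads2 1060 by -0.42 ± 0.16, each on 4 of 4 arrays. The next neighbours did not differ beyond the spread over arrays, which holds the dye orientations. Fads2 1060 and Acsl1 433 differed by -0.03 ± 0.20, Acsl1 433 and Fasn by -0.17 ± 0.42, and Fasn and Fads2 288 by -0.54 ± 0.61. The differences with Fasn changed with the dye. With ANIT in Cy5 the means were -2.61 (Acsl1 433), -2.10 (Fasn) and -2.07 (Fads2 288). With ANIT in Cy3 they were -1.89, -2.06 and -1.0. All these differences are between ratios and say nothing of the amount of each transcript.

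**Figure D2:**
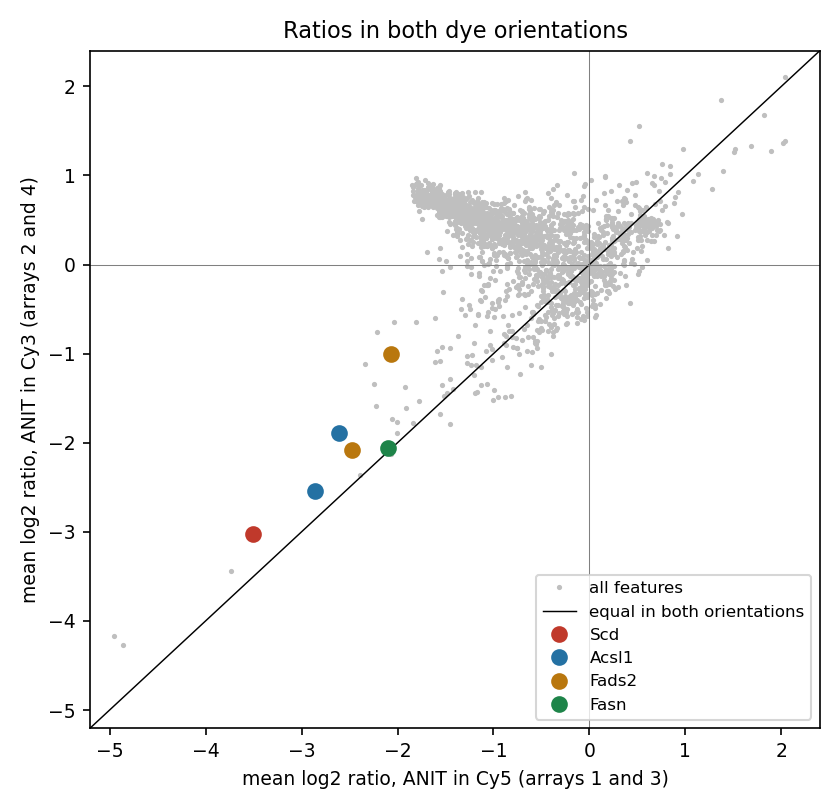
Mean log2 ratio of each feature with ANIT in Cy3 (vertical axis, arrays 2 and 4) against the mean with ANIT in Cy5 (horizontal axis, arrays 1 and 3), with all 1936 features in grey, the features of Scd, Acsl1, Fads2 and Fasn in colour and the line of equal ratios in black. The 6 coloured features lie at the lower left in both orientations, Fasn on the line and Fads2 feature 288 farthest above it, while the bulk of features is negative on the horizontal and positive on the vertical axis.

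The windows from 250 bases before to 50 bases after an annotated start of transcription are shown for Scd, Acsl1 and Fads2. All 4 genes were lower together, but the sequence set used here held no window for Fasn. The sequences are RefSeq's, in build GRCr8. They lie at chr1:253231682-253231981 (Scd), chr16:52532343-52532642 (Acsl1) and chr1:216171984-216172283 (Fads2), all on the minus strand. Capitals mark matches, on either strand, to the CCAAT box (CCAAT), the GC box (GGGCGG), the E-box (CACGTG) and 1 form of the sterol regulatory element (TCACNCCAC).
Scd: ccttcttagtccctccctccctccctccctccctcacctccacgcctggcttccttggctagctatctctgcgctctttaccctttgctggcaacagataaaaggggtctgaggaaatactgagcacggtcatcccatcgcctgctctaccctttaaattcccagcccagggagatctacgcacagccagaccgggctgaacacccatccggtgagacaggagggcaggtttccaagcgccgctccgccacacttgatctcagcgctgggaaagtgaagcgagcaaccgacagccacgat
Acsl1: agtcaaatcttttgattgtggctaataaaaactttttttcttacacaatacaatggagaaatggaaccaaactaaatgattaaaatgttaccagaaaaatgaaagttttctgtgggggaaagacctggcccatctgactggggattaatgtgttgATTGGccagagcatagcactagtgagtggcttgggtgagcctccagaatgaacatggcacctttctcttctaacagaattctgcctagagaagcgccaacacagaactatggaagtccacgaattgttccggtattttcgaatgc
Fads2: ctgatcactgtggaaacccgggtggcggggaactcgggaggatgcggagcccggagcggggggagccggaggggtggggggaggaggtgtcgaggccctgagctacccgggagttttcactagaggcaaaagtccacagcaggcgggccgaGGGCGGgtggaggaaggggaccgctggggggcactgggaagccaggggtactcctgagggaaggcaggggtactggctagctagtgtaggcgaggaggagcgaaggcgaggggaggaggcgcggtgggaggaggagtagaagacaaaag
The Acsl1 window held 1 CCAAT box on the opposite strand, and the Fads2 window 1 GC box. The Scd window held none of these motifs. Of 33469 windows of the same length, 37.5% held a CCAAT box, 33.1% a GC box, 6.42% this E-box and 1.12% this sterol element. G and C made up 58.3% of the Scd window, 40.7% of the Acsl1 window and 67.3% of the Fads2 window, against a median of 51.7% over all windows. For Scd and Acsl1 the annotated gene reaches upstream of the window, so other starts of transcription lie outside it. Whether these windows, and the CCAAT match of Acsl1, lie in a promoter was not tested.

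Other genes of the pathway were few on this array. Of the listed genes that make fatty acids from citrate, Fasn was the only one with a feature under its own symbol. Me1, the malic enzyme that supplies NADPH for synthesis, read -1.23, -0.50, -1.09 and -0.60 (mean -0.86 ± 0.36) and did not reach 2-fold.

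The desaturases take their electrons from cytochrome b5 and its reductase. Of 11 features of this group, 1 was lower and 0 were higher (background 3.05% and 0.775%), and the median was -0.32, beside -0.25 over all features. The lower one was feature 1360 of Cyb5r3, the cytochrome b5 reductase, at -1.46, -1.78, -1.65 and -1.59 (mean -1.62 ± 0.13, 3.07-fold lower). The other Cyb5r3 feature, 1881, read -1.35 and -1.37 with ANIT in Cy5 but 0.60 and 0.81 with ANIT in Cy3. The Cyb5r3 features (1360 minus 1881) thus differed by -0.20 with ANIT in Cy5 but by -2.38 with ANIT in Cy3, and the reductase has no single value here. Cyb5a, the microsomal cytochrome b5, had feature means from -0.41 to 0.59, and the 3 features of Cyb5b, its mitochondrial form, had means from -0.30 to -0.22.

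Acyl-CoA synthetases other than Acsl1 were not analysed here, and the genes measured from their list were fatty acid binding proteins and an uptake receptor. None of their 4 features was called (background 3.05% lower and 0.775% higher), and the median was 0.56. Fabp5, a fatty acid binding protein known best from skin and macrophages, stood at 0.87 ± 0.11 and 0.63 ± 0.19 on its features, positive on all arrays. With centred arrays the first of these had a mean of 1.03 and was called higher. Cd36, a fatty acid uptake receptor, read -0.05 and 0.09 on the arrays with ANIT in Cy5 but 1.03 and 0.87 on those with ANIT in Cy3. Fabp7 had a mean of -0.41 ± 0.17.

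Glycerolipid synthesis, which uses the products of Acsl1, had 0 of 4 features called (background 3.05% lower and 0.775% higher). Its median of -0.10 became 0.06 with centred arrays. By orientation the median was -0.54 with ANIT in Cy5 but 0.45 with ANIT in Cy3, and 3 of the 4 features had opposite signs. Dgat1, which makes triglyceride, stood at 0.18 ± 0.27 and -0.28 ± 0.91, and the lipases Lpl and Lipc at -0.33 ± 1.05 and 0.07 ± 0.22. The 21 features of lipogenic transcription factors and their regulators had none past the rule, against the same background. Their median of -0.13 became 0.03 with centred arrays, and 13 of them had opposite signs in the orientations. Among these, the bile acid receptor Nr1h4 stood at -0.85 ± 0.46, the retinoid receptor Rxra at -0.69 ± 0.16 and -0.34 ± 0.25, and the repressor Nr0b2 at 0.64 ± 0.22 and 0.59 ± 0.14. Srebf1, Mlxipl, Nr1h3 and Ppara, which encode SREBP-1c, ChREBP, LXRα and PPARα, were not analysed here.

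Fatty acid oxidation and cholesterol synthesis had no feature past the rule (0 of 11 and 0 of 8), with medians of -0.26 and 0.16. At the share of all features (3.05% lower and 0.775% higher), lists of this size would hold few calls or none. The oxidation median followed the dye, at -0.54 with ANIT in Cy5 alone but 0.44 with ANIT in Cy3 alone. Of the 11 oxidation features, 6 had opposite signs in the orientations. With centred arrays the medians were -0.09 for oxidation and 0.32 for cholesterol synthesis. Cpt1a, which admits acyl-CoA made by Acsl1 to mitochondria, stood at -0.50 ± 0.28 on feature 677, and on feature 1622 its sign followed the dye (-1.75 and -1.82 with ANIT in Cy5 but 0.63 and 0.88 with ANIT in Cy3). Cyp51, a demethylase of cholesterol synthesis, had 4 features between 0.33 and 0.41, and Dhcr7, the reductase of the last step, had means of -0.60 ± 0.07 and -0.57 ± 0.10.

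Of 13 features of glucose use by the liver, 3 were lower and 0 higher, against 3.05% and 0.775% of all features, and the median was -0.58. Pklr, the liver pyruvate kinase that feeds carbon into lipogenesis, read -1.82, -1.56, -1.73 and -1.50, and Gckr, the regulator of glucokinase, read -1.53, -1.35, -1.51 and -1.61. Pfkfb1, which sets fructose 2,6-bisphosphate, was lower on feature 1125 (-1.09 ± 0.40) and stood at -0.62 ± 0.61 on feature 1279. Feature 1125 was no longer called with centred arrays (-0.92), without array 2 (-0.97) or with ANIT in Cy3 alone (-0.80). In lipoprotein assembly 2 of 7 features were lower, both of Apoc1, an apolipoprotein of very low density lipoprotein and HDL (-1.26 ± 0.30 and -1.15 ± 0.40), against 3.05% of all features, with a list median of -0.32. The Apoc1 feature at -1.15 was no longer called with centred arrays (-0.98) or with ANIT in Cy5 alone (-0.82). Over all these lists, without the 4 genes themselves, 6 of 81 features (7.41%) were lower and 0 higher, against 3.05% and 0.775% of all features, and the median was -0.26, beside -0.25 over all features. The 5 genes with a lower feature had means between -1.65 and -1.09, above the -2.08 of Fasn but on either side of the -1.54 of Fads2 feature 288.

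**Figure D3:**
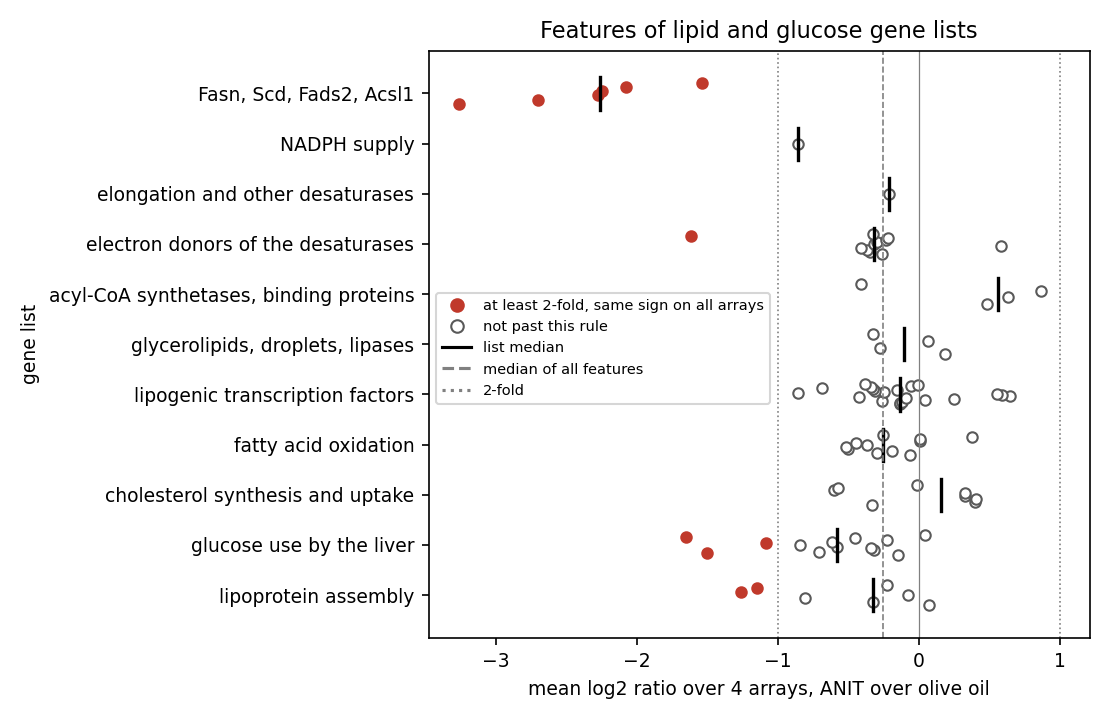
Mean log2 ratio over the 4 arrays (horizontal axis) of each feature of Fasn, Scd, Fads2 and Acsl1 and of related gene lists (rows), with red points at least 2-fold with 1 sign on all arrays, open points not past that rule, black bars for medians and a dashed line for the median of all features. The 6 features of the top row lie between -3.26 and -1.54, and the other red points, 6 of 81, lie between -1.65 and -1.09.

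The features of other genes most like each of the 6 were found by the root mean square (RMS) difference of the ratio over the 4 arrays. For Scd they were Car2 feature 94, a carbonic anhydrase (0.43), and Acsl1 feature 1177 (0.60). Acsl1 feature 433 and Fads2 feature 1060 were each other's nearest, with an RMS difference of 0.18. The next for both was Tsc22d1, a transcriptional regulator, at 0.20 from Fads2 and 0.23 from Acsl1. Acsl1 feature 1177 was nearest to Tsc22d1 (0.42) and the growth factor receptor Fgfr3 (0.44). Fasn was nearest to Hao2, a peroxisomal hydroxyacid oxidase (0.18), and Cyp8b1, a sterol hydroxylase of bile acid synthesis (0.26). Fads2 feature 288 was nearest to both features of Cyp7a1, the first enzyme of bile acid synthesis (0.24 each), which likewise varied between the orientations (SD 0.85 and 0.71). The measure sets level and dye pattern together, over 4 arrays of the same pools.

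Markers of other cell types that could carry these transcripts were thinly covered. Of 14 features of adipocyte, cholangiocyte, macrophage and neutrophil, endothelial and stellate markers, 0 were called (background 3.05% lower and 0.775% higher). Their means lay between -0.45 and 0.11. Signs were opposite in the dye orientations for 2 of 2 adipocyte features and 3 of 4 cholangiocyte features. The same held for 2 of 2 features of macrophages and neutrophils and 4 of 6 endothelial and stellate features. Such features cannot meet the rule of 1 sign, so the lack of calls does not show that these cell types were unchanged. For adipocytes, which also make much Fasn and Scd, 2 of 11 listed genes were measured, Fabp4 (-0.30 ± 0.89) and Pparg (-0.24 ± 1.17), and both had opposite signs in the orientations. Of 14 features of hepatocyte markers, 4 were lower, both of the bile acid carrier Slc10a1 (-1.46 ± 0.02 and -1.41 ± 0.08) and 2 of 7 for the P450 enzyme Cyp2e1 (-1.24 ± 0.14 and -1.05 ± 0.14), against 3.05% of all features. The Cyp2e1 feature at -1.05 lost its call with centred arrays (-0.88), without array 3 (-0.999) and without array 4 (-0.98), which left 3 of 14. The plasma proteins Ttr (-0.13 ± 0.27) and Apoa1 (0.07 ± 0.20) did not reach 2-fold. The part of a change in cell makeup in the ratios of Fasn, Scd, Fads2 and Acsl1 was not tested.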

How the data were processed

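Two-colour spotted cDNA arrays compared 1 ANIT pool with 1 olive oil pool (3 rats each, per the labels) on 4 dye-swapped arrays. The authors deposited 1 log ratio per feature and array, taken here as log2. The log base, ratio direction, scanner, background correction and normalization were not given in the sources used here. Natural logarithms remain possible. The deposited log2 ratios were not median-centred, and no signal or detection flag was used here.

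Ratios were averaged over both orientations (equal weight), with the SD over the 4 hybridisations. No test was made, since each condition has 1 pool. The size rule asked for 2-fold in the mean and 1 sign on all arrays. Features were named from the platform annotation. The gene IDs of 6 of 6 features carry the same symbol in RefSeq. Named genes were all 4 members, up to 3 genes of largest ratio and every called gene per list, and the 2 nearest features by RMS difference. Members and lists were chosen with earlier results of these data known. Alternatives were median centring, single orientations, each array left out, natural logarithms, limits of 1.5-fold and 3-fold, and gene means. Computation used numpy 2.4.6, pandas 2.3.3 and matplotlib 3.10.9 under Python 3.11.15. The number of arrays limits the precision.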

Additional observations from a re-analysis of the deposited data

Results flagged for a closer look

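Among the 83 features of the genes named here, 2 had 1 array far from the other 3 by Dixon's criterion. Chance meets it in about 1 of 20 groups of like values, which arrays split by dye are not. Car2 feature 94, the nearest pattern to Scd, read -3.98 on array 3, while the other arrays lay between -3.50 and -3.40. Fabp5 feature 1526 read 1.04 on array 1, while the others lay between 0.80 and 0.82. No feature of Fasn, Scd, Fads2 or Acsl1 had such an array.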

How the results depend on the processing

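Each of the 6 feature ratios was recomputed with centred arrays, in each orientation alone, without each array and as natural logarithms. All 48 values stayed negative and past the size rule, from -4.71 to -1.0. Read as natural logarithms, in log2 units, they were -4.71 (Scd), -3.90 and -3.25 (Acsl1), -3.29 and -2.22 (Fads2) and -3.00 (Fasn), by construction. The differences became -0.81 between Scd and Acsl1 1177, and -0.61 between Acsl1 1177 and Fads2 1060. Fasn was -1.91 with centred arrays. At the limit of 3-fold, 5 of 6 features were called, and Fads2 feature 288 (2.90-fold) was not. Over all features, 667 were lower with ANIT in Cy5 alone (34.5%), 113 as natural logarithms, 134 at 1.5-fold, 23 at 3-fold and 34 as gene means (of 958). Higher were 33 as natural logarithms, 48 at 1.5-fold, 5 at 3-fold and 6 as gene means. Of the related lists' features, 18 were lower with ANIT in Cy5 alone, 11 as natural logarithms, 14 at 1.5-fold, 2 at 3-fold and 3 as gene means (of 51). The other counts lay within 1.5 times of those reported. Apart from the limits, the gene means and the logarithm base, whose construction moves the counts, the cause was not tested. No paired analysis was possible because each condition has 1 pool, whose ratio within each array is the value itself. Signal over background is unknown, so dim features could not be set aside.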
